A study of Mus musculus with 7 samples.

Results

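The genes described here are versican and other lecticans, the enzymes that make hyaluronan, and proteins that bind it. They are 9 genes, matched by symbol to the gene identifiers of the count files, out of 56854 identifiers listed in all files. They were given as a list: Vcan, Ncan and Bcan (the lecticans versican, neurocan and brevican), Hapln3 (a link protein), Has1, Has2 and Has3 (the hyaluronan synthases), Cd44 (a hyaluronan receptor) and Tnfaip6 (which encodes TSG-6). They were measured by RNA sequencing of whole shoulder joints taken 2 weeks after the left supraspinatus tendon, part of the rotator cuff, had been repaired by surgery, in 3 wild-type and 4 Tnc-/- mice, with 1 library per mouse. Tnc encodes tenascin-C, a glycoprotein of the extracellular matrix, and both groups underwent the repair. Strain, age, sex and the design of the Tnc allele are not given in the sources used here.

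Hyaluronan is a long sugar chain without a protein core, made at the cell surface by the hyaluronan synthases from UDP-sugars and pushed out as it grows. Lecticans are chondroitin sulphate proteoglycans that bind hyaluronan at one end and, through a lectin-like domain at the other, proteins such as tenascins, and link proteins hold that complex together. Versican is laid down in loose and provisional matrix of healing connective tissue, whereas neurocan and brevican are known mainly from the brain.

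The libraries held 13.5 to 18.5 M gene counts in wild type (M is 1000000) and 19.3 to 28.2 M in Tnc-/-. Levels below are CPM, counts per 1000000 after scaling each library by TMM, and errors are SD over mice, with n = 3 for wild type and n = 4 for Tnc-/-. The files of the 2 genotypes list different identifiers, and only those of Tnc-/- hold rows that name no gene. Whether the libraries were also made or sequenced apart is not given in the sources used here, so any such difference and genotype cannot be told apart in the comparisons. Wild-type libraries 2 and 3 stand apart from the other 5: genes for smell, pheromone and trace-amine receptors (2026 genes, called chemoreceptors here), which a joint is not known to use, summed to 1399 and 982 CPM there, against 89.1 CPM in wild-type library 1 and 36.5 to 43.9 CPM in Tnc-/-. Cartilage, bone, synovial and leukocyte markers were present in all libraries, and the tendon marker Tnmd had 182 to 361 CPM. The 3 muscle markers, all detected, summed to 13911 to 18718 CPM in wild type and 19823 to 28607 CPM in Tnc-/-, without overlap, and Myh4, a fast muscle myosin, was higher in Tnc-/- (log2 fold change 1.18; adjusted p = 0.0086 in edgeR). Ckm and Acta1, the other 2 muscle markers, overlapped between the genotypes (log2 fold change 0.50 and 0.23, adjusted p = 0.153 and 0.522 in edgeR). Acta1 was the largest part of each sum. The part of muscle in the values below was not tested. Scx, another tendon marker, was listed at 0 in all 7. In the GENCODE M21 annotation its span lies wholly under another gene. Of 876 protein-coding genes lying inside another, 90.4% were listed at 0 in all libraries, against 17.3% of 11645 that touch no other gene. Among the 452 nested genes that share no exon base with another gene, 88.7% were at 0, although counting over exons alone would keep their reads. Of the span of the 9 genes, other genes cover 15.9% of Has2, 4.91% of Has3, 4.19% of Vcan and at most 0.227% of the rest.

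The gene that was knocked out, Tnc, was at 437, 292 and 327 CPM in wild type and at 33.4, 38.9, 39.9 and 54.97 CPM in Tnc-/-. The groups did not overlap, and the log2 fold change was -3.08 (SE 0.21; edgeR, adjusted p = 2.8e-04). All 4 Tnc-/- libraries kept reads on the gene.

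Of the 9 genes, all of which passed the filter on low counts, 1 was past the threshold (adjusted p under 0.05 in edgeR's quasi-likelihood test), against 29% of the 17791 genes tested. It was Ncan, lower in Tnc-/-, a direction called in 18.7% of all genes. None was called higher in edgeR, against 10.3% of all genes. At an unadjusted p under 0.05 there were 2 of the 9, against 42.3% of all genes. DESeq2 called 2 of the 9, against 39.8% of the 23714 genes it gave an adjusted p, and limma voom called 0, against 5.47% of all genes. The median log2 fold change of the 9 was -0.093, against -9.0e-04 over all tested genes. In 3 of the 9 the groups did not overlap (Ncan and Hapln3 below, Has3 above in Tnc-/-), against 35.1% of all tested genes. Neither share stood above that of genes at large.

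**Figure D1:**
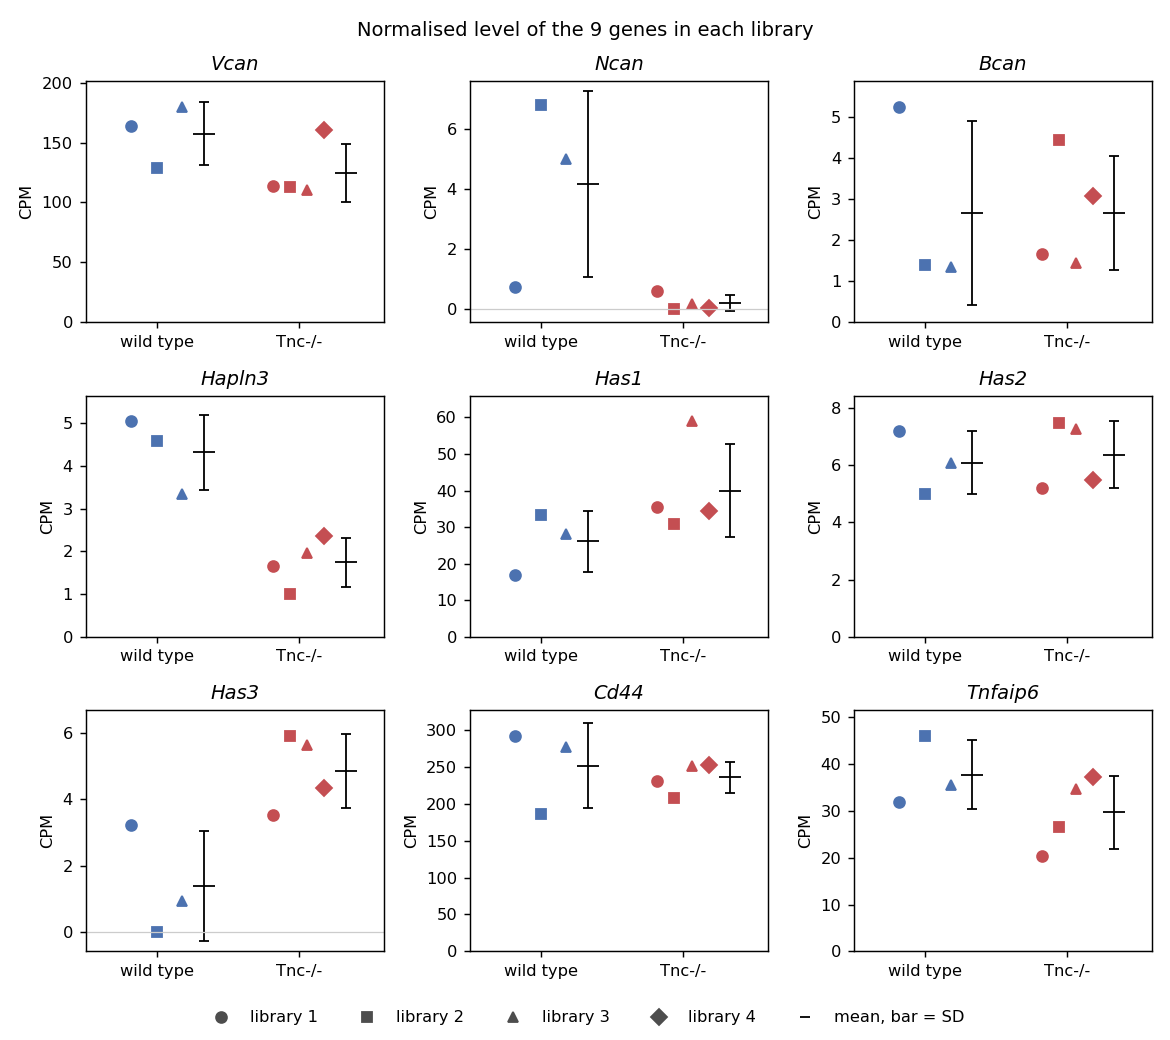
Level of each of the 9 genes in CPM (vertical axis) in the 3 wild-type (blue) and 4 Tnc-/- (red) libraries; the marker shape gives the library number, the black dash the mean and the bar the SD. Ncan is above 1 CPM only in wild-type libraries 2 and 3, while the Hapln3 groups do not overlap (3.34 to 5.04 CPM against 1.003 to 2.35 CPM).

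Levels of different genes were compared per kb of exon (exon lengths from GENCODE M21). This scale fits counting over exons alone, and the nested genes listed at 0 go against that, so the order of the most abundant genes and the mean Has1 share are given per kb of gene span as well. The comparison with the median gene has no such second value. In wild type the order was Cd44 (37.2 ± 8.48 CPM per kb), Tnfaip6 (22.1 ± 4.30), Vcan (10.9 ± 1.82), Has1 (5.78 ± 1.85), Has2 (1.44 ± 0.261), Hapln3 (1.23 ± 0.251), Bcan (0.655 ± 0.553), Ncan (0.580 ± 0.430) and Has3 (0.216 ± 0.260). The first 5 were separate from each other in the 3 libraries, whereas from Has2 downwards each gene overlapped its neighbour. In Tnc-/- the levels per kb were 34.8 ± 3.14 for Cd44, 17.4 ± 4.56 for Tnfaip6, 8.84 ± 2.83 for Has1, 8.61 ± 1.67 for Vcan and 1.502 ± 0.277 for Has2. Has1 overlapped both Vcan and Tnfaip6 there, since Tnc-/- library 3 had 13.04 CPM per kb of Has1 and Tnc-/- library 1 had 11.9 CPM per kb of Tnfaip6. Below them came Has3 (0.761 ± 0.177), Bcan (0.656 ± 0.344), Hapln3 (0.497 ± 0.162) and Ncan (0.0282 ± 0.0373). For scale, the median tested gene was at 4.70 CPM per kb in wild type and 3.79 in Tnc-/-. Cd44, Tnfaip6, Vcan and Has1 were thus above the median gene in both groups, and the other 5 below it, on this scale. Per kb of the whole gene span, a scale chosen after seeing the data, wild type had 2.78 ± 0.635 CPM per kb for Cd44, 2.197 ± 0.705 for Has1, 2.02 ± 0.394 for Tnfaip6 and 1.81 ± 0.301 for Vcan. Each of these overlapped the next. In Tnc-/- the span values were 3.36 ± 1.08 for Has1, 2.61 ± 0.235 for Cd44, 1.59 ± 0.417 for Tnfaip6 and 1.43 ± 0.277 for Vcan, so the order among the 4 depended on the length used.

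Promoter sequence is shown for 4 of the genes: the most abundant of the 3 lecticans listed, the link protein whose groups were separate, and the 2 expressed genes of hyaluronan assembly with a motif that few promoters hold. The RefSeq promoter table (GRCm38.p6) matched 7 of the 9 genes, and the 250 bases before the start are given 5′ to 3′ on the gene's strand. Capitals mark 4 motifs searched on both strands: the TATA box TATAAA, the GC box GGGCGG, the AP-1 site TGAGTCA and the cyclic AMP response element TGACGTCA. No motif overlapped another in these 4 windows.
Vcan, chr13:89742513-89742762, minus strand: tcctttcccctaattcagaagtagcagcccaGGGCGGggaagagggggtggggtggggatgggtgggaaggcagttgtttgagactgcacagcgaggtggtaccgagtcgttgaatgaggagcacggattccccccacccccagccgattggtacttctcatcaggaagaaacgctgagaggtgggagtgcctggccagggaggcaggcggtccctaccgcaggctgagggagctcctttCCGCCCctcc
Hapln3, chr7:79131019-79131268, minus strand: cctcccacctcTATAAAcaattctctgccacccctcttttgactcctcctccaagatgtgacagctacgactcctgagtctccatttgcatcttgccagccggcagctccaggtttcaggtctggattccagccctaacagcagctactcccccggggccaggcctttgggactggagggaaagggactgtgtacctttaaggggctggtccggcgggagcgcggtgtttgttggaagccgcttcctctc
Has1, chr17:17855189-17855438, minus strand: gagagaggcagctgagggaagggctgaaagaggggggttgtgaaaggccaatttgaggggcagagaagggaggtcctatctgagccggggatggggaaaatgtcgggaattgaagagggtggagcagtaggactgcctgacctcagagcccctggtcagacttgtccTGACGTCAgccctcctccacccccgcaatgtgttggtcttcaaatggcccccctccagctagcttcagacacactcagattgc
Tnfaip6, chr2:52037863-52038112, plus strand: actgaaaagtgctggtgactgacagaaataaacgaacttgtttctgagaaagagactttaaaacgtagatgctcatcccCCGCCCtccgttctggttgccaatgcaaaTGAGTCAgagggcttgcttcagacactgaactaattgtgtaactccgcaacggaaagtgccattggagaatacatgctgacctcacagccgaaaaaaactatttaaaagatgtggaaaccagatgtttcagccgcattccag

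The motifs differed between these windows. The Has1 window held TGACGTCA, found in 1.55% of 32851 promoter windows of this length, and the Tnfaip6 window held TGAGTCA, found in 4.46%. Neither motif was in any other of the 7 windows. GGGCGG or its reverse complement was in the windows of Vcan, Ncan, Bcan and Tnfaip6 and in 32.7% of all windows. TATAAA or its reverse complement was in those of Ncan and Hapln3 and in 12.4% of all. A match of letters is a description and shows no binding.

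Versican was the only one of the 3 lecticans listed here at a high level. Vcan (ENSMUSG00000021614) had 3054, 1935 and 2962 counts in wild type and 3066, 2029, 1979 and 3071 counts in Tnc-/-. Its level was 164, 129 and 180 CPM in wild type and 113, 113, 111 and 161 CPM in Tnc-/-. Tnc-/- libraries 1 to 3 lay below every wild-type library, and library 4 lay among them. The means were 157 ± 26.3 and 124 ± 24.1 CPM, a log2 fold change of -0.34 (SE 0.18; 95% interval -0.75 to 0.073; adjusted p = 0.189 in edgeR), which was not past the threshold. Scaling by library totals moved the difference to -0.58 (adjusted p = 0.0338). That scaling moved the median over all tested genes to -0.24. Leaving out 1 library gave between -0.22 (without wild-type library 1; adjusted p = 0.32 in edgeR) and -0.49 (without Tnc-/- library 4; 0.0693), with -0.23 without wild-type library 3 (0.481).

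Cartilage and tendon genes were examined in the same libraries as versican. Acan (aggrecan, the lectican of cartilage) was at 190, 188, 230 and 518 CPM in Tnc-/- libraries 1 to 4, and Hapln1, the link protein of cartilage, at 32.5, 29.97, 39.6 and 55.2 CPM. Both were highest in library 4, but Hapln1 there was below wild-type libraries 1 and 3 (62.4 and 66.9 CPM). The summed level of 3 cartilage markers, all detected, was 623, 555, 1294 and 1919 CPM in the same libraries and 1237, 519 and 733 CPM in wild type. The tendon markers, of which 2 of 3 had counts, summed to 242, 220, 189 and 367 CPM in Tnc-/- and to 305, 215 and 257 CPM in wild type. Nearly all of this was Tnmd. Mkx, the other tendon marker with counts, was at 9.88, 12.7 and 13.1 CPM in wild type and 5.13 to 7.00 CPM in Tnc-/-, and was lower there (log2 fold change -0.92; adjusted p = 0.0379 in edgeR). The part of tissue make-up in the level of Vcan was not tested. In whole joints, fewer cells of a type and less RNA per cell cannot be told apart.

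The 3 genes whose pattern over the 7 libraries was most like that of Vcan were Enpp1 (which makes pyrophosphate outside the cell), Tm4sf1 (a four-pass surface protein) and Cd109 (a surface protein that binds TGF-beta). Likeness was the root-mean-square difference of log2 CPM centred on each gene's mean, over 12339 genes that averaged 5 CPM or more, leaving out predicted models and pseudogenes. It was 0.046 for Enpp1, 0.055 for Tm4sf1 and 0.088 for Cd109. Enpp1 was at 194, 151 and 205 CPM in wild type and 135, 130, 140 and 192 CPM in Tnc-/-. As in Vcan, wild-type library 3 was the highest and Tnc-/- library 4 stood above the other 3 Tnc-/- libraries.

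Neurocan was the gene past the threshold, with few reads. Ncan (ENSMUSG00000002341) had 14, 102 and 82 counts in wild type and 16, 0, 3 and 1 counts in Tnc-/-, which is 0.751, 6.78 and 4.98 CPM against 0.592, 0, 0.168 and 0.052 CPM. Only wild-type libraries 2 and 3 were high. Wild-type library 1 was close to Tnc-/- library 1, and the 0 of Tnc-/- library 2 allows a level of up to 0.167 CPM (3 counts; counting error only). The log2 fold change was -4.23 (SE 1.14; 95% interval -6.81 to -1.65; adjusted p = 0.025 in edgeR). Without wild-type libraries 2 and 3 it was -1.76 (adjusted p = 0.443). The call was also lost without wild-type library 2 (-3.69; adjusted p = 0.0794) or 3 (-4.09; 0.0834) and without Tnc-/- library 2 (-3.86; 0.053), 3 (-4.15; 0.0775) or 4 (-3.94; 0.073).

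The 2 libraries high in Ncan were also those high in chemoreceptor reads. Per kb of gene span, Ncan was 4.55, 2.60 and 2.72 times the chemoreceptor level in wild-type libraries 1 to 3 and 7.30, 0, 2.23 and 0.765 times in Tnc-/- 1 to 4. Among the Tnc-/- libraries the chemoreceptor level differed little (36.5 to 43.9 CPM) while Ncan ran from 0 to 0.592 CPM, so the parallel rests on wild-type libraries 2 and 3. With the chemoreceptor level as a covariate the log2 fold change of Ncan was -0.79 (edgeR, adjusted p = 0.798). That level was higher in every wild-type library than in any Tnc-/- library. A fit with this covariate, here and below, can therefore also take up part of a genotype difference. The 6 markers of the central nervous system summed to 8.96, 61.4 and 49.4 CPM in wild type and to 9.58 to 13.5 CPM in Tnc-/-. Most of the wild-type sum in libraries 2 and 3 was Rbfox3, a neuronal marker, at 2.04, 40.6 and 33.8 CPM in wild type and 0.471 to 1.62 CPM in Tnc-/-. Gfap, a marker of astrocytes that some Schwann cells also express, had the opposite order, at 5.47, 1.26 and 3.28 CPM in wild type and 7.24 to 11.1 CPM in Tnc-/-, and made up most of the Tnc-/- sums. The neuronal markers Snap25 (0.268, 7.97 and 2.86 CPM in wild type; 0 to 0.224 in Tnc-/-), Slc17a7 (0.805, 5.25 and 2.55; 0.074 to 1.15) and Gad1 (0.376, 6.31 and 6.93; 0 to 0.962) were also highest in wild-type libraries 2 and 3. Olig2, a marker of oligodendrocyte lineage, had 0 counts in 6 libraries and 1 count in the other. Rbfox3 spans 422 kb, and 78.5% of the 586 tested genes spanning over 300 kb were called lower in Tnc-/-. Schwann cell markers summed to 86.7 to 116 CPM in wild type and 132 to 150 CPM in Tnc-/- (4 of 4 detected), and were lowest in wild-type libraries 2 and 3. The part of chemoreceptor-like reads or of nervous tissue in the Ncan difference was not tested.

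**Figure D2:**
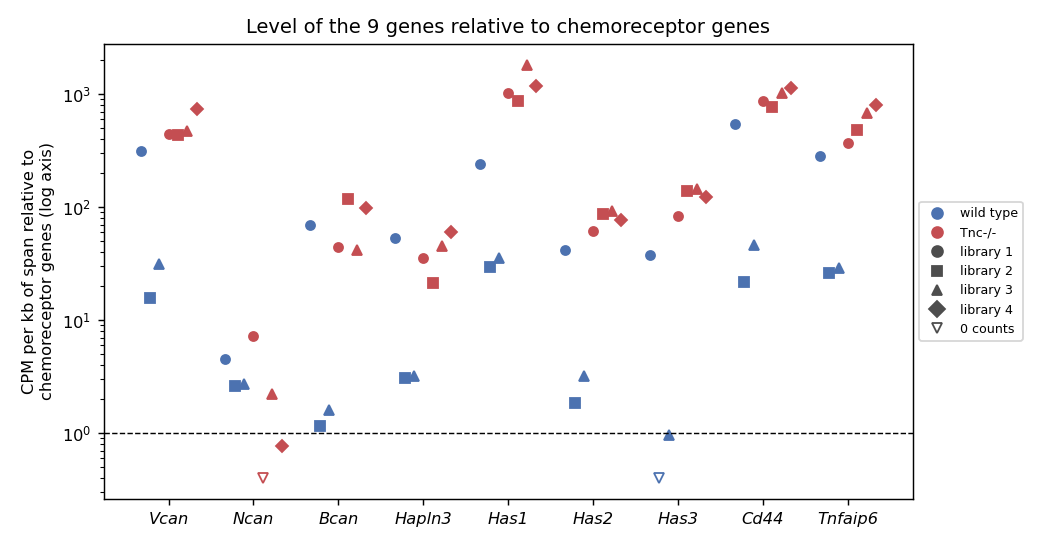
Level of each gene per kb of its span divided by that of chemoreceptor genes in the same library (vertical log axis); blue is wild type, red Tnc-/-, shapes are library numbers and open triangles mark 0 counts, drawn at the foot of the plot; the dashed line marks a ratio of 1. Ncan lies at 0 to 7.30 times the chemoreceptor level, while Vcan, Has1, Cd44 and Tnfaip6 lie at 15.7 times it or more in all 7 libraries.

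Brevican did not follow neurocan. Bcan (ENSMUSG00000004892) was at 5.26, 1.40 and 1.34 CPM in wild type and 1.66, 4.46, 1.46 and 3.09 CPM in Tnc-/-. High and low libraries occurred in both groups. The log2 fold change was -0.0049 (SE 0.68), with a 95% interval of -1.54 to 1.53 that leaves a change of over 2-fold in either direction possible. Its sign depended on which libraries were kept, in both genotypes. Without Tnc-/- library 1 the difference was 0.15 and without Tnc-/- library 3 it was 0.20, against -0.37 without Tnc-/- library 2. Without wild-type library 1 the difference was 1.05 (adjusted p = 0.15 in edgeR), without libraries 2 and 3 it was -0.99 (0.265), and with the chemoreceptor covariate -1.52 (0.301). In wild-type libraries 2 and 3 Bcan was 1.17 and 1.596 times the chemoreceptor level per kb of span, against 42.3 to 119 times in the other 5.

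Among link proteins, Hapln3 was lower in every Tnc-/- library. Hapln3 (ENSMUSG00000030606) had 94, 69 and 55 counts in wild type and 45, 18, 35 and 45 in Tnc-/-. This is 5.04, 4.59 and 3.34 CPM against 1.66, 1.003, 1.96 and 2.35 CPM. The lowest wild-type library was above the highest Tnc-/- library. The means were 4.32 ± 0.882 and 1.75 ± 0.570 CPM, a log2 fold change of -1.31 (SE 0.47; 95% interval -2.37 to -0.24; unadjusted p = 0.0221, adjusted p = 0.0666 in edgeR), which missed the threshold. DESeq2 (-1.34; adjusted p = 0.0155), scaling by library totals (-1.54; 0.0342) and a filter of at least 10 counts in every library (-1.38; 0.0282) put it past the threshold. Without wild-type libraries 2 and 3 the difference was as large, -1.53 (adjusted p = 0.0683). Over all alternatives it ran from -1.64 to -1.09.

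**Figure D3:**
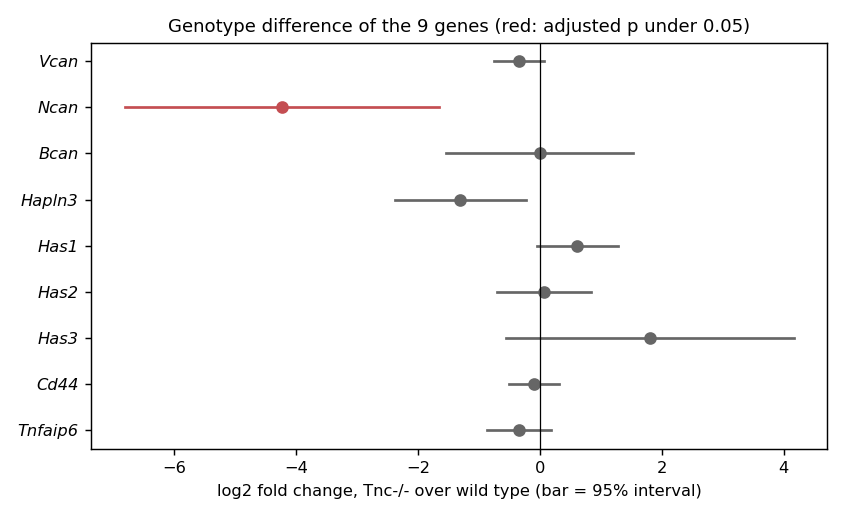
Log2 fold change of each gene, Tnc-/- over wild type (horizontal axis), as points with 95% intervals from the edgeR fit over 7 libraries; the gene past the threshold is red. Ncan (-4.23) is the only gene past the threshold, and the interval of Hapln3 (-2.37 to -0.24) is the only other one that does not include 0.

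Has1 supplied most of the synthase message in every library. Scaled per kb of exon, it made up 63.0, 86.2 and 79.8% of the 3 synthase messages in wild type and 81.5, 71.8, 83.4 and 79.4% in Tnc-/-, means of 76.3 ± 12.02 and 79.0 ± 5.05%. Per kb of gene span the means were 86.3 and 85.2%. Has2 made up 13.8 to 28.6% in wild type and 11.0 to 18.5% in Tnc-/-. Has3 made up 0 to 8.49% and 5.67 to 9.70%. The shares of each synthase overlapped between the genotypes. The summed level was 5.94, 8.55 and 7.80 CPM per kb in wild type and 9.62, 9.54, 15.6 and 9.62 in Tnc-/-. On this TMM scale all 4 Tnc-/- libraries were above the 3 wild-type ones, as they were in 17.7% of all tested genes. The sum was not computed with library totals.

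**Figure D4:**
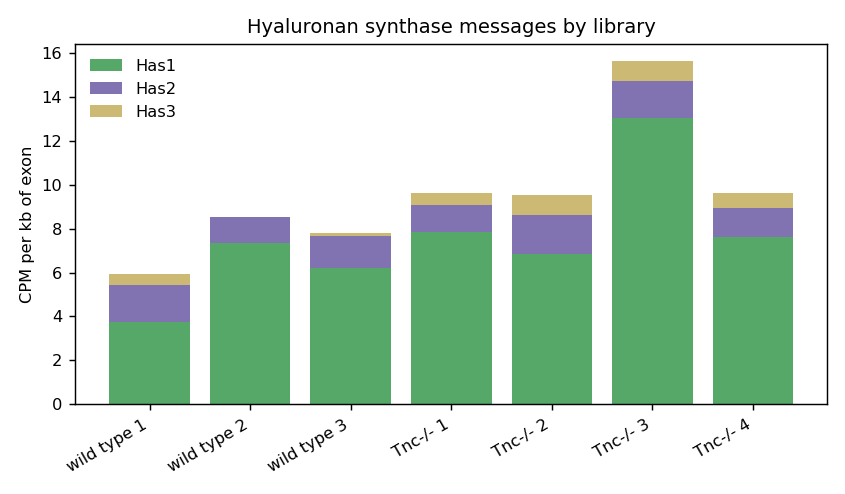
Messages of the 3 hyaluronan synthases in CPM per kb of exon (vertical axis, from 0), stacked for each library. Has1 (green) is the largest part of all 7 bars, and Tnc-/- library 3 has the tallest bar at 15.6 CPM per kb.

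Has1 (ENSMUSG00000003665) was at 16.9, 33.3 and 28.1 CPM in wild type and 35.4, 31.0, 58.9 and 34.5 CPM in Tnc-/-. Tnc-/- library 2 was the only one within the wild-type range, and library 3 stood far above the rest. The means were 26.1 ± 8.38 and 39.9 ± 12.8 CPM, with a log2 fold change of 0.61 (SE 0.29; 95% interval -0.049 to 1.28; adjusted p = 0.143 in edgeR). It stayed positive and short of the threshold in all 17 alternatives, from 0.35 to 1.496. Without Tnc-/- library 3 it was 0.36 (adjusted p = 0.359), and without wild-type libraries 2 and 3, where only wild-type library 1 (the lowest) remains, 1.23 (0.0579).

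Has2 (ENSMUSG00000022367), the synthase known as essential for the embryonic heart, was at 7.19, 4.98 and 6.07 CPM in wild type and 5.21, 7.47, 7.28 and 5.49 CPM in Tnc-/-. The groups overlapped over most of their range. The log2 fold change was 0.063 (SE 0.34; 95% interval -0.71 to 0.84; adjusted p = 0.906 in edgeR). In GENCODE M21 its antisense transcript gene Has2os shares 182 exon bases with it, and the strand setting of the counting is not given in the sources used here.

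Has3 (ENSMUSG00000031910) had 60, 0 and 15 counts in wild type and 95, 106, 101 and 83 counts in Tnc-/-. Its level was 3.22, 0 and 0.911 CPM against 3.51, 5.91, 5.65 and 4.34 CPM. The genotypes did not overlap, but wild-type library 1 lay next to Tnc-/- library 1. The 0 of wild-type library 2 allows up to 0.199 CPM (3 counts), below the 1.35 CPM that a gene of this span would have at the chemoreceptor level of that library. The log2 fold change was 1.80 (SE 1.04; 95% interval -0.57 to 4.17; adjusted p = 0.222 in edgeR). It was past the threshold without wild-type library 1 (3.45; adjusted p = 0.00216). Without wild-type libraries 2 and 3 it was 0.58 (0.391), and with the chemoreceptor covariate it turned to -0.39 (0.863). The opposite-strand gene Chtf8 shares 352 exon bases with Has3, or 5.52% of its exon length, so the limit on strand given for Has2 holds here too.

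Cd44, the most abundant of the 9 per kb of exon, showed no difference beyond the spread. Cd44 (ENSMUSG00000005087), the main cell surface receptor of hyaluronan on leukocytes and fibroblasts, was at 292, 186 and 277 CPM in wild type and 231, 208, 252 and 253 CPM in Tnc-/-. All 4 Tnc-/- libraries lay within the wild-type range. The log2 fold change was -0.093 (SE 0.18; adjusted p = 0.728 in edgeR), with a 95% interval of -0.50 to 0.32. It was -0.33 with library totals (adjusted p = 0.144), -0.31 without wild-type libraries 2 and 3 (0.309) and -0.48 with the chemoreceptor covariate (0.364). The 5 leukocyte markers, of which 4 had counts (Itgam was listed at 0, with 99.9% of its span under another gene), summed to 2615, 1343 and 1325 CPM in wild type and 2052 to 2433 CPM in Tnc-/-. Wild-type library 2 was low in both Cd44 and these markers, while wild-type library 3 was low in the markers alone. The part of leukocytes in the level of Cd44 was not tested.

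Tnfaip6 encodes TSG-6, a secreted protein induced in inflammation that moves heavy chains of inter-alpha-inhibitor onto hyaluronan. Tnfaip6 (ENSMUSG00000053475) was at 31.8, 46.0 and 35.5 CPM in wild type and 20.3, 26.6, 34.8 and 37.3 CPM in Tnc-/-. Tnc-/- libraries 1 and 2 lay below wild type, and libraries 3 and 4 within its range. The means were 37.8 ± 7.35 and 29.7 ± 7.79 CPM, a log2 fold change of -0.35 (SE 0.23; 95% interval -0.88 to 0.18; adjusted p = 0.293 in edgeR). Without wild-type libraries 2 and 3 it was -0.11 (adjusted p = 0.847). It ran from -0.0085 with the chemoreceptor covariate to -0.60 with library totals (adjusted p = 0.0919). With 1 library left out it lay between -0.18 (without wild-type library 2) and -0.48 (without Tnc-/- library 4), and was -0.22 without Tnc-/- library 1.

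Other genes of the hyaluronan and lectican system were taken from a list of 55 in 8 roles. Of these, 46 passed the filter, 6 were listed at 0 in all libraries and 3 had few counts. Among the 46, 2 were past the threshold higher and 4 lower in Tnc-/-, or 13.0%, against 29% of all tested genes. Their median log2 fold change was 0.040. DESeq2 called 9 of the 49 it gave an adjusted p (39.8% of all such genes), and limma voom 1 of 46 (5.47% of all genes).

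**Figure D5:**
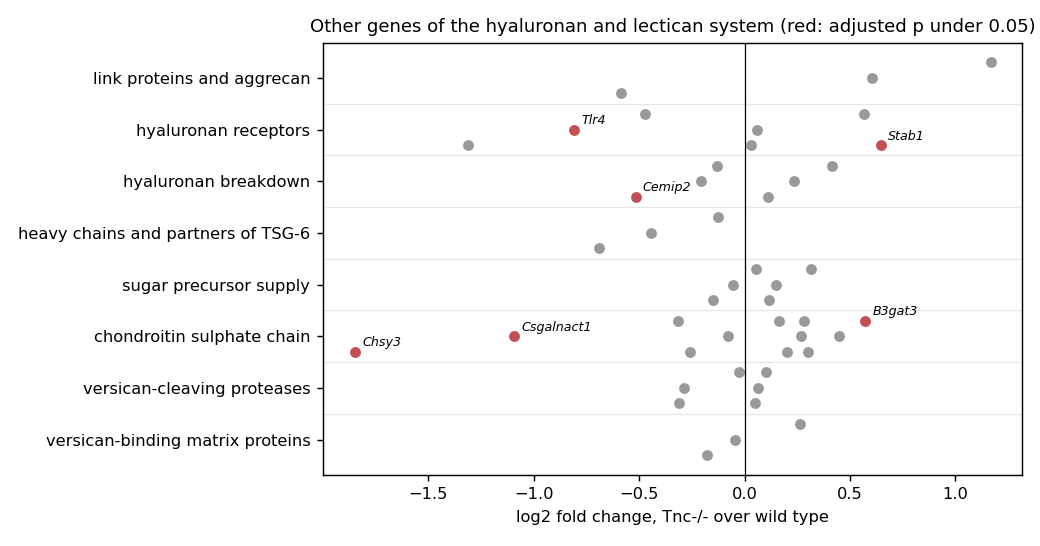
Log2 fold change, Tnc-/- over wild type (horizontal axis), of the 46 tested genes of the list, by role (rows; the height within a row has no meaning); genes past the threshold are red and named. Chsy3 (-1.85) and Csgalnact1 (-1.09) lie lowest of the called genes, and most others lie between -0.5 and 0.5.

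Hyaluronan receptors had 2 of 7 genes past the threshold, in opposite directions (28.6%, against 29% of all tested genes). Tlr4, a receptor of innate immunity that responds to matrix fragments as well as to lipopolysaccharide, was at 35.3, 37.9 and 42.9 CPM in wild type and 22.0, 21.4, 25.3 and 19.6 CPM in Tnc-/-. The groups did not overlap, with a log2 fold change of -0.81 (SE 0.15; adjusted p = 0.0083 in edgeR). The call held in 14 of 17 alternatives, and without wild-type libraries 2 and 3 the difference was -0.68 (adjusted p = 0.0597). With the chemoreceptor covariate it was -0.63 (0.189). Tlr4 spans 103 kb, and 44.7% of the 1999 tested genes spanning 100 to 300 kb were called lower in Tnc-/-. Stab1, a scavenger receptor of macrophages and sinusoidal endothelium, was at 135, 89.5 and 107 CPM in wild type and 157, 167, 167 and 200 CPM in Tnc-/-, a log2 fold change of 0.65 (SE 0.17; adjusted p = 0.0228). All Tnc-/- libraries were above wild type, but the call was lost without wild-type library 2 (0.52; adjusted p = 0.0714) or 3 (0.62; 0.0874) and without Tnc-/- library 2 (0.66; 0.0524), 3 (0.66; 0.0606) or 4 (0.57; 0.0618). The difference without both wild-type libraries 2 and 3 was 0.35 (adjusted p = 0.265 in edgeR), and with the chemoreceptor covariate 0.18 (0.72). Lyve1, the receptor of lymphatic vessels, was at 31.5 ± 4.68 CPM in wild type and 32.1 ± 0.978 CPM in Tnc-/-.

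In hyaluronan breakdown, 1 of 6 tested genes of 8 was past the threshold (16.7%, against 29% of all). Cemip2, a cell surface hyaluronidase, was at 69.3, 70.7 and 73.1 CPM in wild type and 41.6, 48.7, 55.5 and 52.9 CPM in Tnc-/-. All Tnc-/- libraries lay below wild type, with a log2 fold change of -0.52 (SE 0.13; adjusted p = 0.0197 in edgeR). The call held in 10 of 17 alternatives. It was lost without wild-type library 3 (-0.49; adjusted p = 0.0718) or Tnc-/- library 2 (-0.51; 0.0548), in limma voom (-0.53; 0.0555), with the replicate block (-0.56; 0.0654) and with the chemoreceptor covariate (-0.49; 0.267), where the size changed little. Without wild-type libraries 2 and 3 the difference was -0.49 (adjusted p = 0.119). Hyal2, which cuts large hyaluronan at the cell surface, was at 24.3 ± 3.66 and 32.4 ± 4.36 CPM, a log2 fold change of 0.42 that missed the threshold (adjusted p = 0.101 in edgeR). Hyal1 and Hyal3 were listed at 0, with their whole span under other genes in GENCODE M21.

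In the making of chondroitin sulphate chains, which decorate versican, 3 of 12 tested genes of 13 were past the threshold (25%, against 29% of all). B3gat3, which adds the last sugar of the linker between core protein and chain, was at 45.7, 33.5 and 32.3 CPM in wild type and 53.5, 54.98, 52.5 and 60.4 CPM in Tnc-/-. All Tnc-/- libraries lay above wild type, with a log2 fold change of 0.57 (SE 0.15; adjusted p = 0.0253 in edgeR). That call held in 5 of 17 alternatives, and without wild-type libraries 2 and 3 the difference was 0.27 (adjusted p = 0.326). With the chemoreceptor covariate it was 0.13 (0.776). The call was lost without wild-type library 2 (0.51; 0.0764) or 3 (0.48; 0.0954) and without any 1 of the Tnc-/- libraries (0.53 to 0.60; 0.0636 to 0.0729).

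Csgalnact1, which starts the chain, was at 24.8, 65.9 and 64.3 CPM in wild type and 21.6, 21.6, 25.5 and 28.1 CPM in Tnc-/-, a log2 fold change of -1.09 (SE 0.31; adjusted p = 0.0296 in edgeR). Wild-type library 1 lay within the Tnc-/- range. Chsy3, a chain-extending enzyme named after its values were seen, showed the same split, at 15.6, 98.5 and 65.3 CPM in wild type and 12.4 to 24.4 CPM in Tnc-/- (-1.85, SE 0.52; adjusted p = 0.0318). These are long genes, spanning 378 and 361 kb. Of the 586 tested genes spanning over 300 kb, 78.5% were called lower in Tnc-/-, against 9.72% of the 5379 spanning 10 to 30 kb. Without wild-type libraries 2 and 3 the differences were -0.040 and 0.082 (adjusted p = 0.927 and 0.903 in edgeR). Each call was also lost when any 1 of the 6 libraries besides wild-type library 1 was left out, at adjusted p of at most 0.126 for Csgalnact1 and 0.113 for Chsy3.

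In the other 5 roles no gene was past the threshold in edgeR. Over all genes the shares were 29% in edgeR, 42.3% at an unadjusted p under 0.05, 39.8% in DESeq2 and 5.47% in limma voom. DESeq2 also gave an adjusted p to genes that edgeR's filter removed, so its counts can come from more genes. Of 3 link proteins and aggrecan tested in edgeR, 1 had an unadjusted p under 0.05, and DESeq2 called 1 and limma voom 0. The gene under 0.05 in edgeR was Hapln1, at 59.1 ± 9.98 CPM in wild type and 39.3 ± 11.4 CPM in Tnc-/- (log2 fold change -0.59, SE 0.23, adjusted p = 0.0805 in edgeR). Of 3 heavy chains and partners of TSG-6 tested in edgeR, 0 had an unadjusted p under 0.05 there. In this role DESeq2 called 1, from a larger number of genes, and limma voom called 0. Ptx3, a partner of TSG-6, was listed at 0 with its whole span under another gene. Among the 6 tested enzymes of UDP-sugar supply, the 6 versican-cleaving proteases and the 3 versican-binding matrix proteins, 0 had an unadjusted p under 0.05, and DESeq2 and limma voom called 0. Adamts5, a protease that cuts versican and aggrecan, was at 46.9 ± 10.8 and 38.4 ± 2.76 CPM, and Ugdh, which makes the UDP-glucuronate that synthases use, at 84.8 ± 3.54 and 88.1 ± 8.04 CPM.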

How the data were processed

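Whole shoulder joints of 7 mice were profiled, 3 wild type and 4 Tnc-/-, grouped by the genotype label. What the authors deposited for each library is a file of unnormalized read counts, with genes in rows. The submitters' processing notes name FastQC 0.11.9, HISAT2 2.2.1, HTSeq 2.0.2 and DESeq2 1.38.3 with the builds GRCm39 and mm39; the annotation release and strand setting are not given in the sources used here. The identifier sets of the genotypes differ (126 in the wild-type files alone, 87 in the Tnc-/- files alone). In the Tnc-/- files 5 rows that name no gene held 30.1 to 32.7% of reads and were left out. GENCODE M21 and the RefSeq promoter table are on GRCm38, so coordinates are printed only for RefSeq promoters, with that build. Exon lengths, spans and overlaps between genes came from M21, which held 91.4% of identifiers.

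The genotype test used edgeR 4.0.16 under R 4.3.3 (filterByExpr, TMM, robust quasi-likelihood F test, genotype as its 1 term), with Benjamini-Hochberg adjustment over all 17791 genes tested and a threshold of 0.05. SE is the log2 fold change over the square root of F. CPM are counts per 1000000 of the TMM-scaled library, and floors are 3 counts. Alternatives used DESeq2 1.42.0, limma 3.58.1, other scalings, filters, a replicate block, a covariate (log2 summed CPM of chemoreceptor genes) and left-out libraries. The genes named are the 9, Tnc, the 2 called genes of smallest p in each role, and the 3 most like Vcan (prior count 0.5); others were chosen after their values were seen. Members, lists and tests were chosen with earlier results of these data known.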

Additional observations from a re-analysis of the deposited data

Results flagged for a closer look

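Among 56 genes checked for a Tnc-/- library far from the other 3, 7 stood apart. About 1 in 20 would do so by chance if values were normally distributed. The share over all tested genes was not computed, so the 7 are not shown to exceed genes at large. Most of the 7 stood apart in the same library, Tnc-/- library 4. Wild type, with 3 libraries, was not checked. Of the 9 genes 2 were among the 7. Vcan was at 161 CPM in Tnc-/- library 4, with 111 to 113 CPM in the others, and the gap was 0.948 of the whole range. Has1 was at 58.9 CPM in Tnc-/- library 3, with 31.0 to 35.4 CPM in the others (0.842 of the range).

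In Tnc-/- library 4, Acan was high at 518 CPM, Fbln2 (fibulin-2, which binds versican) at 366 CPM against 248 to 252 CPM, and Chpf (chondroitin polymerizing factor) at 166 CPM against 94.4 to 99.6 CPM. Csgalnact2 was low there, at 55.8 CPM against 59.1 to 59.8 CPM. Ugp2, which makes UDP-glucose, was at 328 CPM in Tnc-/- library 2 against 264 to 272 CPM.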

How the results depend on the processing

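The fit had 5159 genes, 1 of the 9 genes and 6 of the 46 list genes past the threshold. DESeq2 gave 9449 genes and 2 of the 9, and limma voom 973, 0 and 1 (707 genes higher and 266 lower, against 1830 and 3329). Bonferroni adjustment gave 22, 0 and 0. With scaling by library totals, 951 genes were higher and 4541 lower, or 30.9% of all tested genes, with 3 of the 9 and 10 of the 46 list genes. The chemoreceptor covariate gave 406, 0 and 1, and leaving out wild-type libraries 2 and 3 gave 825, 0 and 0; the lone wild-type library is then assumed to vary like Tnc-/-. At an unadjusted p under 0.05 the 9 genes had 3 in limma voom (32.8% of all genes) and 2 under each of Bonferroni (42.3%), block (31.3%), covariate (18.6%) and without those libraries (24.6%). The replicate number as a block gave 1932, 0 and 2. Same-numbered deviations from the group means correlated by -0.0053, 0.102 and -0.0055. So few values cannot tell whether same-numbered mice share more than a number.

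Leaving out 1 library gave 2229 to 14113 genes, 0 to 2 of the 9 and 1 to 18 of the list. The highest counts were those without wild-type library 1, where 64.2% of 21989 tested genes were called; the other fits called 12.3 to 17.6%. Tnc kept its call in all 17 alternatives, from -3.59 to -2.80. Direction turned for Bcan with limma voom (0.042), no filter (0.049) and the block (0.039), and for Has2 with library totals (-0.17), 10 counts in every library (-0.014), the covariate (-0.30) and without wild-type libraries 2 and 3 (-0.19). It turned with the covariate for Has3 (-0.39), Csgalnact1 (0.34) and Chsy3 (0.78), and without wild-type libraries 2 and 3 for Chsy3 (0.082). With 1 library left out, Bcan ranged from -0.37 to 1.05, Has2 from -0.058 to 0.29 and Cd44 from -0.27 to 0.12. The mean share of Has1 among synthases was 86.3% in wild type and 85.2% in Tnc-/- per kb of gene span, a scale chosen after seeing the data. The cause of these changes was not tested. Vcan, Hapln3, Has1, Tnfaip6 and Ncan kept their direction in every alternative that kept them. Ncan, Bcan, Hapln3 and Has3 had low counts and wide intervals, and the part of counting error in these intervals was not tested.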
